A study of Mus musculus with 2 samples.

Results

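The mouse miRNA genes numbered Mir6896 to Mir7094 are a run of catalogue entries annotated largely as hairpins derived from introns. They were taken by symbol: every gene row of the count tables whose GENCODE M21 symbol lies from Mir6896 to Mir7094 by number, with or without a letter or copy suffix, which gave 201 of 2202 rows. The rule itself reads symbols and no measured value. Of the 199 whole numbers in the range, 198 had a gene row, and 5 of the symbols carried a suffix (Mir6973a, Mir6973b, Mir7036b, Mir7094-1 and Mir7094-2).

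The data are small RNA sequencing libraries from hippocampal tissue, labelled as a layer of hippocampus that is not further specified. All mice were B6CASTF1/J females of 25 days; B6CASTF1/J is the F1 hybrid of the C57BL/6J and CAST/EiJ strains, and no treatment is given. The 2 libraries, replicates 1 and 2, form 1 group and come from separate tissue samples. Their sample names carry different numbers after the word female, while their donor record is the same. As a check of the tissue, Mir137, a miRNA enriched in neurons, stood at 5321 CPM in replicate 1 and 14089 CPM in replicate 2, and Mir122, the defining miRNA of liver, at 32.3 and 141 CPM. Markers of other cell types, named here after their values were seen, set the libraries apart: Mir219a-2, enriched in oligodendrocytes, had 4960 and 119 CPM, and the epithelial Mir200c and Mir429 had 19.5 and 2706 CPM and 22.8 and 1697 CPM. Their part in the library differences given below was not tested.

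A mirtron is a miRNA whose hairpin is made by splicing: a short intron is cut out, its lariat is opened by the debranching enzyme, and the linear intron folds into a hairpin that Dicer can cut. This route bypasses Drosha and DGCR8, the nuclear complex that cuts most other miRNA precursors from their transcripts. In a tailed mirtron only one end of the hairpin is made by the spliceosome, and the extra bases of the intron at the other end have to be removed. Introns begin with GU and end with AG, so a hairpin made at a splice site carries those letters.

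The 4 hairpins below show the arrangements that the counts are sorted by. They are RefSeq sequences (GRCm38.p6, the assembly of mm10), written 5′ to 3′. For the first 3, capitals mark the ends of the intron that the hairpin includes. Mir7080 (chr8:123130106-123130172, plus strand) is the whole of intron 12 of 14 of Cpne7, and Mir6944 (chr13:55477681-55477776, minus strand) the whole of intron 9 of 14 of Dbn1. Mir7044 (chr6:118085192-118085263, plus strand) holds only the 3′ end of intron 4 of 12 of Rasgef1a. Mir7029 (chr5:115580949-115581009, plus strand) crosses the end of intron 10 of 57 of Gcn1l1, and its capitals are the 7 bases that lie in the next coding exon.
Mir7080: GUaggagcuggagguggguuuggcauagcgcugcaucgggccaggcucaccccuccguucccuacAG
Mir6944: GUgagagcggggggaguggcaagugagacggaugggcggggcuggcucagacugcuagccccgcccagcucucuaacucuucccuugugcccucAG
Mir7044: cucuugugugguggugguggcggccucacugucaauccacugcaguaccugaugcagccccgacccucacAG
Mir7029: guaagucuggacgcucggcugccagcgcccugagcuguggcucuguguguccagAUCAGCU

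The mature sequences of some of the highest entries show what a read would have to hold to come from an arm. RefSeq gave a hairpin for 180 of the 201 genes and at least 1 mature sequence for 185, and all 180 hairpins had the same coordinates as the GENCODE entry. Capitals mark the seed, bases 2 to 8, the stretch with which a miRNA chiefly pairs to its targets. The 5p sequence comes from the 5′ arm and the 3p sequence from the 3′ arm.
mmu-miR-7080-5p: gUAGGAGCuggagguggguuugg
mmu-miR-7080-3p: cAGGCUCAccccuccguucccu
mmu-miR-6944-5p: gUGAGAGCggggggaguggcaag
mmu-miR-6944-3p: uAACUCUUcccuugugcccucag
mmu-miR-7044-5p: gUGUGGUGgugguggcggc
mmu-miR-7044-3p: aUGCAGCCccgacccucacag
mmu-miR-7066-5p: uGGGUUGGgaaaugaguagagg
mmu-miR-7066-3p: uCUACCCAuugccugccucccag
mmu-miR-7059-5p: aCCGGGGAcugcggcuuucagu
mmu-miR-7059-3p: uGUUUGCUguuuguccucccag
These arms are uneven in composition. Over the 177 annotated 5p sequences of the Mir6896 to Mir7094 genes, G made up a median 43.5% of bases, beside 27.3% in 520 other mouse 5p sequences. Over the 176 annotated 3p sequences, pyrimidines made up 72.1% and C 40.9%, beside 54.5% and 27.3% in 533 others. The counts are per gene, so which arm the reads came from was not measured.

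The hairpins sat at the ends of introns. All 201 lay in a host gene on the same strand, 199 of them in protein-coding genes, across 196 hosts on 20 chromosomes. The 3′ end of the hairpin was exactly the last base of an annotated intron for 186 of 201, and the 5′ end was exactly the first base for 18. Sorted with a tolerance of 2 bases, 14 hairpins filled a whole intron and are called intron-spanning. In 173 only the 3′ end met a splice site, and in 4 only the 5′ end. Another 8 ran over an exon boundary, and 2, Mir7036b in Add1 and Mir7051 in Etfb, lay inside an intron with neither end at a splice site. Other annotated transcripts have exon over all 63 bases of Mir7036b and over 61 of the 73 bases of Mir7051. Among the other 2001 rows, 8 were intron-spanning and 33 had only the 3′ end at a splice site.

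The sequence follows from the position. Introns begin with GU and end with AG, so these letters were largely set by the coordinates and are no separate result. All 166 RefSeq hairpins whose 3′ end was at a 3′ splice site ended in AG, and 14 of the 15 that began at a 5′ splice site began with GU. Over all entries of the range with a RefSeq hairpin, 167 of 180 (92.8%) ended in AG, beside 71 of 825 (8.61%) other mouse hairpins. The mature ends lay there as well: of the 166 3p sequences from hairpins at a 3′ splice site, 130 ended at the last base of the intron, 29 ended 1 or 2 bases before it and 7 ended 3 or more before it. mmu-miR-6944-3p and mmu-miR-7044-3p end at that last base, and mmu-miR-7080-3p ends 4 bases before it.

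The intron-spanning hairpins filled introns of 67 to 137 bases, with a median of 81. The introns that held only the end of a hairpin were longer, with a median of 563 bases and a range of 77 to 36269. For these 173 the distance from the start of the intron to the hairpin had a median of 499 bases and quartiles of 80 and 1410, which is the length of the 5′ tail.

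**Figure D1:**
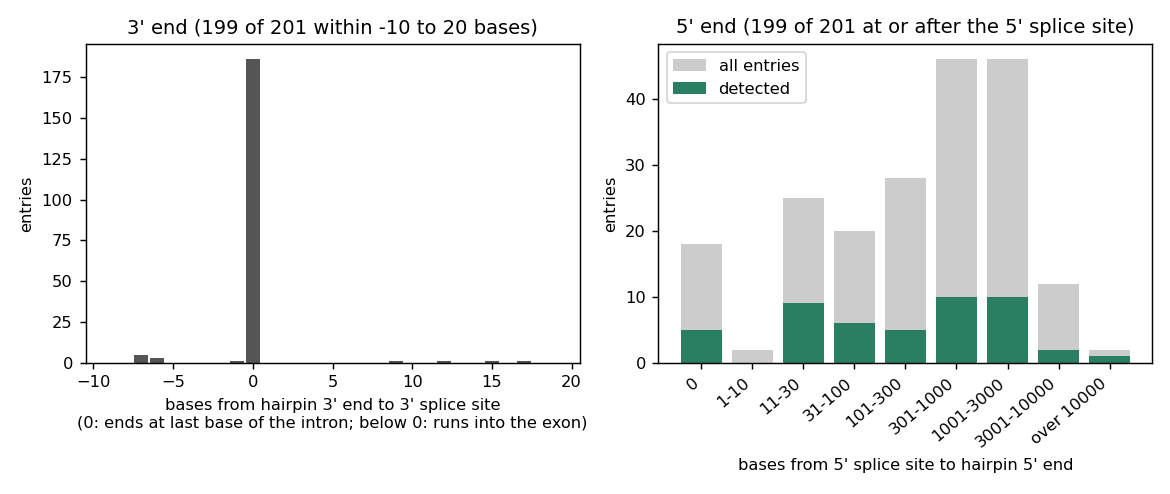
Position of the 201 hairpins against the splice sites of their hosts. The left panel counts entries (y axis) by bases from the hairpin's 3′ end to the 3′ splice site (x axis, 0 being the last base of the intron); the bar at 0 holds 186 entries. The right panel counts the 199 entries that begin at or after the 5′ splice site (grey) and the detected ones (green) by bases from the 5′ splice site, and 8 of the 9 bins hold detected entries.

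Most of these genes had reads, and few had many. At least 1 count in either library was found for 164 of 201 (81.6%), against 37.2% of all gene rows and 656 of the 2001 other rows. A gene was called detected at a CPM (counts per 1000000 gene counts of its library) of at least 2 in each library, and 48 of 201 (23.9%) reached that, against 19.7% of all gene rows and 385 of 2001 (19.2%) of the others. The share detected was thus near the background, while the share with any count was above it. CPM is not divided by length, since a small RNA read is taken to be a whole molecule. Read lengths and positions were not examined.

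Among detected genes the levels differed. The median mean CPM was 5.13 for the 48, beside 175 for the 385 other detected genes and 118 for all detected genes. Of the 48, 34 stayed under a mean of 10 CPM and 2 reached 100, beside 65 and 216 of the 385. Of all 201, 37 had no count in either library and 59 had 1 to 9 counts in sum. The upper limit for a gene with a count of 0, set at 3 counts, was 0.547 CPM for replicate 1 and 0.703 CPM for replicate 2. The median CPM of the 201, 0.730 and 0.937, lay close above these limits.

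The whole range made up 6108 of 5481053 gene counts in replicate 1, or 0.111% (exact Clopper-Pearson 95% interval 0.109 to 0.114), and 2437 of 4266963 in replicate 2, or 0.0571% (0.0549 to 0.0594). The mean was 0.0843% ± 0.0384 (SD, n = 2), and replicate 1 stood 1.95-fold above replicate 2. A single gene, Mir7080, set most of that gap: without it the shares were 0.0680% and 0.0546%, a 1.25-fold difference. Ranked within each library, so that the genes can differ, the highest 4 held 62.2% of these counts in replicate 1 and 25.8% in replicate 2. The highest 48 of each library, which are not the same set as the 48 detected genes, held 90.4% and 78.0%.

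Mir7080 (ENSMUSG00000098582.1) had the highest mean of the range. Its host Cpne7 encodes a copine, a membrane-binding protein that responds to calcium. It had 2383 counts in replicate 1, 435 CPM, and 109 in replicate 2, 25.5 CPM, a mean of 230.2 CPM ± 289 (SD, n = 2), and ranked 182 of the 2202 rows. Replicate 1 was thus far above replicate 2, by 17.0-fold (95% counting interval 14.0 to 20.8). An annotated transcript of Cpne7 keeps this intron, so all 67 bases of the hairpin are also exon in that transcript.

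Mir6944 (ENSMUSG00000098341.1) lies in Dbn1, which encodes drebrin, an actin-binding protein of dendritic spines. It had 869 counts in replicate 1, 159 CPM, and 366 in replicate 2, 85.8 CPM, a mean of 122 CPM ± 51.5 (SD, n = 2). It was the highest of the range in replicate 2 and was 1.85-fold lower there (1.63 to 2.09) than in replicate 1. No annotated transcript has exon sequence over this hairpin.

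The other intron-spanning entries were lower. Mir7070, in intron 2 of 9 of Fbxw9, an F-box protein gene, had 37 and 55 counts, 6.75 and 12.9 CPM in replicates 1 and 2, a difference called with library totals and not with edgeR's TMM factors (adjusted p of the exact binomial test 0.00369 and 0.0535). Mir6958, in Dennd6b, had 23 and 21 counts, and Mir7068, in Cherp, had 19 and 15. Both libraries gave these last 2 nearly the same level, 4.20 and 4.92 CPM for Mir6958 and 3.47 and 3.52 CPM for Mir7068. Of the remaining 9 intron-spanning entries, Mir6970 in Skiv2l had 15 and 3 counts, Mir7018 in Hspg2, Mir7060 in Fbrs, Mir7058 in Lat and Mir6974 in Lta had 3 or 4 counts in 1 library and 0 in the other, and Mir6923, Mir6981, Mir7088 and Mir7091 had none in either. So 5 of the 14 were detected, and the median mean CPM of the class was 0.469.

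Among entries with only the 3′ end at a splice site, 43 of 173 were detected, with a median mean CPM of 1.15 over the class. Mir7044 led them, in Rasgef1a, a guanine nucleotide exchange factor gene of the Ras family. It had 332 counts in replicate 1, 60.6 CPM, and 41 in replicate 2, 9.61 CPM, a mean of 35.1 CPM ± 36.0 (SD, n = 2). Replicate 2 was 6.30-fold lower (4.55 to 8.95). Its hairpin overlaps 27 coding bases of another annotated transcript of the host, and it was the only detected entry among the 14 that overlap coding bases.

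Mir7066, in Ncan, which encodes the brain matrix proteoglycan neurocan, had 89 and 74 counts, 16.2 and 17.3 CPM, and its 2 levels did not differ beyond counting error (ratio 1.07, 0.774 to 1.47). Mir6953, in intron 2 of 6 of Grina, had 118 and 25 counts, 21.5 and 5.86 CPM, and was 3.67-fold lower in replicate 2 (2.37 to 5.91).

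Mir6982 lies at the 3′ end of intron 9 of 18 of Camk2a, the alpha subunit of a calcium-dependent kinase abundant in excitatory neurons. It had 146 counts in replicate 1, 26.6 CPM, and 2 in replicate 2, 0.469 CPM. It therefore missed the detection limit in replicate 2, and its ratio of 56.8 between the libraries has a counting interval of 15.5 to 474.

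Several entries of similar mean had the opposite order. Mir7059 is in Cln3, a lysosomal membrane protein gene, and had 37 and 79 counts, 6.75 and 18.5 CPM, so replicate 2 was 2.74-fold higher (1.83 to 4.17). Mir7083, in Dock6, an exchange factor for Rac and Cdc42, had 37 and 70 counts and was 2.43-fold higher. Mir7004, in Atp9a, a flippase-family ATPase gene, had 42 and 69 counts and was 2.11-fold higher. Next came Mir6934 in Tbc1d16, a Rab GTPase-activating protein gene, with 40 and 60 counts (1.93-fold higher), and Mir6986 in Rce1, a CAAX protease gene, with 42 and 53 (1.62-fold higher).

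The remaining named entries lay between 4.57 and 13.0 mean CPM. Mir6900 in Ndufa10, a subunit of respiratory complex I, had 82 and 47 counts, Mir7069 in Farsa, a phenylalanyl-tRNA synthetase subunit, 50 and 61, and Mir7019 in Pink1, the mitochondrial kinase, 87 and 27. Mir7019 was 2.51-fold lower in replicate 2 (1.61 to 4.02), while Mir7069 was 1.57-fold higher (1.06 to 2.33) and the interval of the Mir6900 ratio (0.503 to 1.07) included no change. With TMM factors, another scaling of the libraries, Mir7069 lost its call and Mir6900 gained one (adjusted p of the exact binomial test 0.236 and 0.0101). Mir6897 in Uggt1, the folding sensor of the endoplasmic reticulum, had 42 and 43 counts, Mir6945 in Pdlim7 46 and 33, Mir7063 in Ap2a2, a clathrin adaptor subunit, 30 and 40, and Mir7046 in Rabac1 52 and 14. Of these last 4, Mir7063 was 1.71-fold higher in replicate 2 (1.04 to 2.85) and Mir7046 was 2.89-fold lower (1.58 to 5.65), while the ratios of Mir6897 and Mir6945 had intervals that included no change. Mir7063 also lost its call with TMM factors (adjusted p of the exact binomial test 0.239). The mRNA levels of the hosts were not analysed here.

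Lower entries completed the list. Levels were above in replicate 2 for Mir7026 in Ep400, a chromatin remodeller, with 13 and 41 counts, and for Mir7016 in Tmem39b, with 15 and 30. They were above in replicate 1 for Mir7071 in Heatr3, with 36 and 11. For the others the interval of the ratio included no change: Mir6994 in Patl1 had 26 and 30 counts, Mir6968 in Phf1 23 and 30, Mir6989 in Map4k2 26 and 24, Mir6959 in Sbf1 35 and 16, Mir6928 in Atp6v0a1, a proton pump subunit, 24 and 24, Mir6990 in Esrra, an orphan nuclear receptor, 30 and 18, and the 2 entries of shared hosts given below. Mir6959 was called lower in replicate 2 with TMM factors (adjusted p of the exact binomial test 0.0257).

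**Figure D2:**
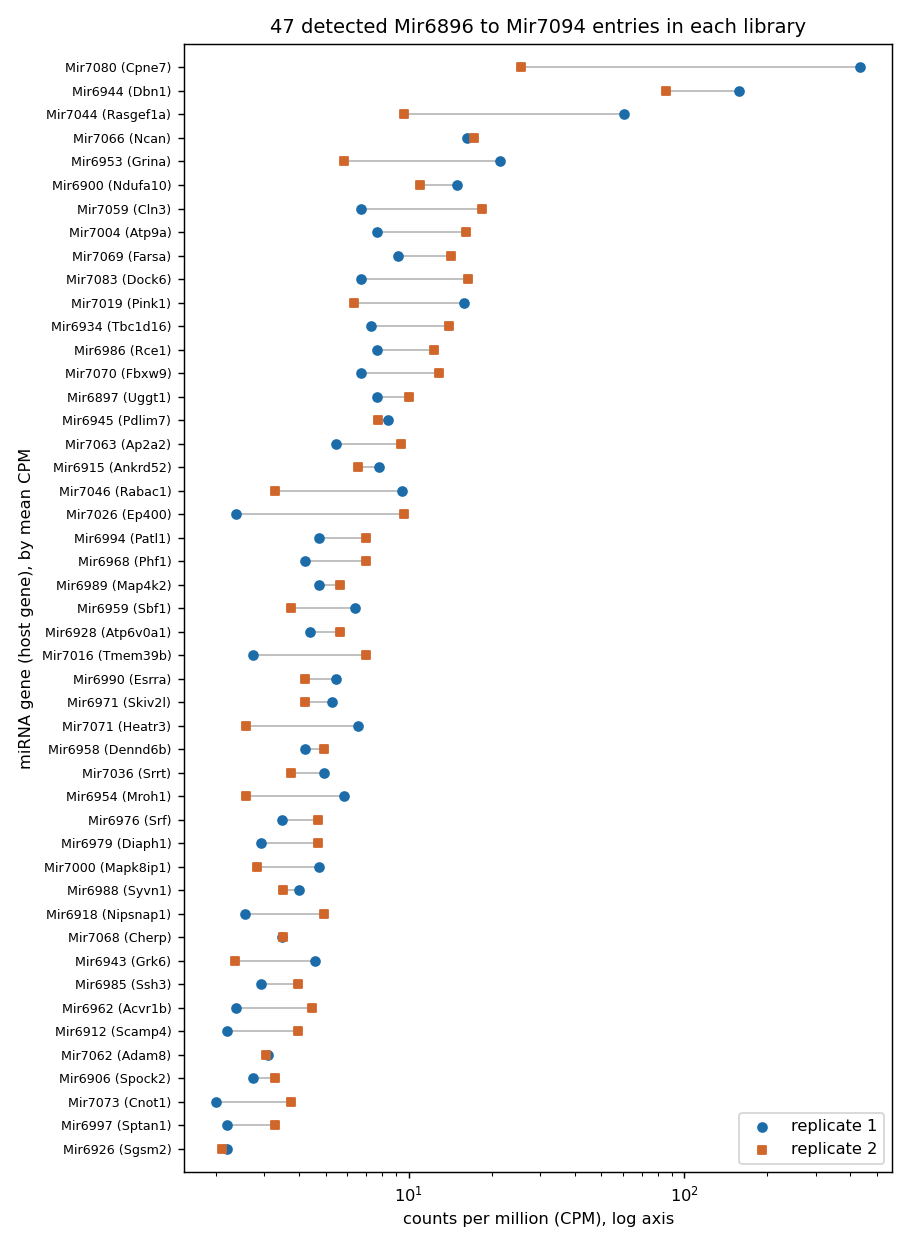
Level of 47 of the 48 detected entries in each library, as CPM on a log axis, with the host gene in parentheses. Circles are replicate 1 and squares replicate 2, and the line joins the 2 values of a gene. The 3 highest entries shown, Mir7080, Mir6944 and Mir7044, are all higher in replicate 1, and below them both orders occur.

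The detected entries all had their 3′ end at a splice site. The 14 entries in the other arrangements gave 0 detected, of 4 with only the 5′ end at a splice site, 8 over an exon boundary and 2 inside an intron. Their highest mean levels were those of Mir6977 in Ptprs, with 8 and 9 counts (1.46 and 2.11 CPM), and Mir6936 in Sirt7, with 16 and 1. In replicate 2 alone Mir7036b was highest, with 10 counts (2.34 CPM), beside 4 in replicate 1. Of the 8 over an exon boundary, 7 ran 6 or 7 bases into the next coding exon, as Mir7029 does in the sequence printed above. Mir7029 had 6 and 4 counts, Mir6914 2 and 5, Mir6903 1 and 3, Mir6925 3 and 0, Mir6904 0 and 2, and Mir6901 and Mir6950 none. The eighth, Mir7025, takes in 30 bases of the upstream exon of Pdgfra and had 9 and 2.

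No test was made of these shares. By counts, the intron-spanning entries held 54.8% of the range in replicate 1 and 23.8% in replicate 2, and the 173 with the 3′ end only held 44.3% and 74.6%. Mir7080 gave 2383 of the 3349 counts of the intron-spanning class in replicate 1 and 109 of its 580 in replicate 2.

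Median levels were lower in the 2 groups with the longest 5′ tails. The median mean CPM was 1.52 for 34 entries with tails of 1 to 50 bases, 2.16 for 22 with tails up to 200, 1.06 for 59 with tails up to 1000 and 0.703 for 57 with longer tails, and no test was made. Over the detected entries alone the medians were 4.17, 6.41, 5.48 and 5.00 in the same order. Among the 173, detection was 10 of 34 for tails of 1 to 50 bases, 8 of 22 for 51 to 200, 12 of 59 for the next group, up to 1000 bases, and 13 of 57 for longer tails, and 1 hairpin began 4 bases before the intron. The highest entries with a long tail were Mir7066, with a tail of 1357 bases, and Mir6900, with 2838. The Spearman correlation across the 201 genes between mean CPM and the length of the intron was -0.07, and between mean CPM and the length of the hairpin -0.03. These are descriptions across genes of the same 2 libraries.

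Some hairpins overlap exon sequence of an annotated transcript on their strand, where a read could come from that transcript. An overlap of at least 1 base was found for 41 of 201, of which 10 (24.4%) were detected, beside 38 of 160 (23.8%) with none. The overlap ran from 1 base at Mir7010 to the whole hairpin, and the 41 include the 8 entries over an exon boundary. The counts of the 41 summed to 3158 in replicate 1 against 433 in replicate 2, of which Mir7080 alone gave 2383 and 109. A transcript of retained-intron type overlapped 23 of them by at least 1 base, 5 detected. An exon of a protein-coding transcript overlapped 20, with 4 detected: Mir7044, Mir7019, Mir6945 and Mir6912. The whole hairpins of Mir7019, Mir6945 and Mir6912 are exon in an annotated transcript. A gene on the opposite strand overlapped 14 entries, 4 detected.

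**Figure D3:**
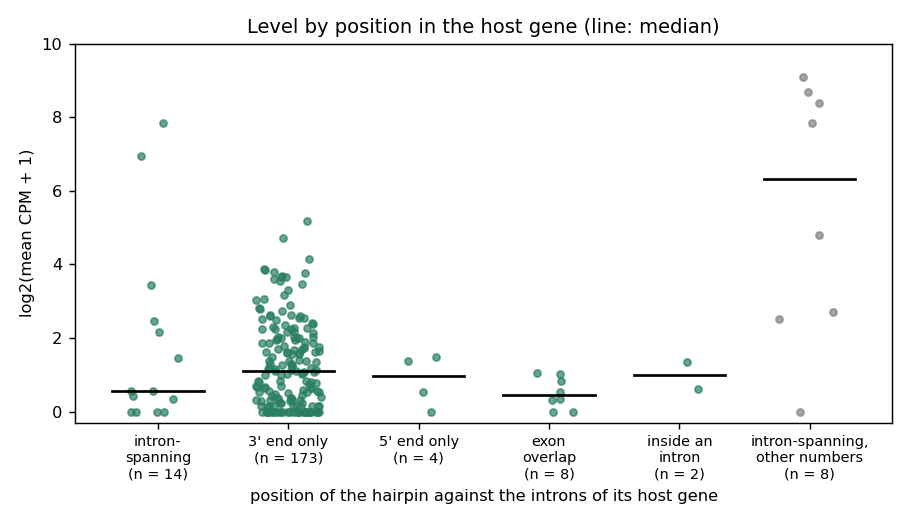
Level by position of the hairpin in its host. Each point is 1 gene, the y axis is log2(mean CPM + 1) over the 2 libraries, and the line is the median of the class. The intron-spanning entries of the range reach the highest values, Mir7080 and Mir6944, but their median lies below that of the 173 entries with the 3′ end only; the last column shows the 8 intron-spanning entries with other numbers.

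Intron-spanning genes outside the number range stood higher. Of those 8, 6 were detected, and the median mean CPM of the 8 was 129, beside 0.469 for the 14 in the range. Mir877, a mirtron in Abcf1, had 2162 and 1827 counts, 394 and 428 CPM, and Mir1224, in Vwa5b2, had 1009 and 1182, 184 and 277 CPM. Mir3102 and Mir1981, named here after their values were seen, had 840.0 and 249.8 CPM and 299 and 373 CPM. Mir702, in Plod3, whose hairpin starts 9 bases inside the upstream exon, had 468 and 194 CPM.

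Other entries with high catalogue numbers were nearer. Of 358 genes numbered 3000 or above outside the range, 68 (19.0%) were detected, with a median mean CPM of 11.8, and 167 (46.6%) had any count. The 201 had counts more often than these and lower levels where detected. The 33 entries outside the range with only the 3′ end at a splice site were closer: 78.8% had any count, 13 (39.4%) were detected, and the median mean CPM of those 13 was 6.47. No test was made of these differences.

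In 5 hosts 2 entries lie in different introns of the same gene. In Skiv2l, a helicase gene of the RNA exosome pathway, the intron-spanning Mir6970 had 15 and 3 counts and Mir6971, at the 3′ end of intron 19, had 29 and 18. In Ankrd52, Mir6914 had 2 and 5 and Mir6915, at the end of intron 21, had 43 and 28. In Srebf1, a regulator of lipid synthesis, Mir6921 had 0 and 1 and Mir6922 had 4 and 14. One member of each of these 3 pairs was above the other in both libraries. The pairs in Cmip, Mir7077 and Mir7078, and in Arap3, Mir6980 and Mir6981, had at most 3 counts in any library. Mir6970 shares a stretch of 22 or more bases with another miRNA gene, as do Mir7065, Mir7094-1 and Mir7094-2, which had no count, and reads with several places enter no gene count.

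The entries have mostly seeds of their own. The 353 mature names carry 325 distinct seeds. Of the 353, 52 share the seed with another entry of the range, 55 share it with a miRNA outside it, and 266 share it with neither. The largest groups hold 3 names, and the one with a detected gene is shown here with the seed in capitals.
mmu-miR-7068-3p: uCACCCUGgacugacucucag
mmu-miR-7018-3p: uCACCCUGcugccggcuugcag
mmu-miR-7023-3p: uCACCCUGucugcgccccucag
Their genes differed in level: Mir7068 had 19 and 15 counts, Mir7018 0 and 4, and Mir7023, in Pik3cd, 33 and 7. All 3 sequences end in the AG of the intron. mmu-miR-7016-5p has the seed AGGGAGG, which it shares with mmu-miR-149-3p and mmu-miR-1943-5p.
mmu-miR-7016-5p: cAGGGAGGggagcgagaguag

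Levels in the libraries were compared gene by gene with a two-sided exact binomial test given the library totals, with Benjamini-Hochberg adjustment over all 579 genes with at least 10 counts in sum. The test sets 1 library against the other and measures no condition. Of 105 entries tested, 45 (42.9%) differed at the 0.05 threshold, against 68.9% of all genes tested. All 45 differed by at least 1.5-fold, so the share of tested entries called with that fold was also 42.9%, beside 55.8% of all genes tested. Of the 105 entries, 24 were higher in replicate 2, beside 243 of all 579 genes tested (42.0%). Another 21 were lower, beside 156 of the 579 (26.9%). With edgeR's TMM factors 14 of the 105 were higher, beside 196 of the 579 (33.9%). With those factors 27 were lower, beside 200 (34.5%), so the split between higher and lower depends on the scaling. The median log2 ratio of the 105 was -0.04 with library totals and -0.23 with TMM, beside 0.24 and -0.01 for all genes tested. With DESeq2 size factors 13 of the 105 were higher and 27 lower, beside 192 and 200 of the 579 genes.

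Most tested entries had few counts: the 45 had a median of 40 counts in sum and the other 60 a median of 27. The part of depth in the difference from the background was not tested. Among entries with a mean of at least 10 CPM, those with the largest log2 ratios downward in replicate 2 were Mir6982 (-4.23), Mir7080 (-4.04), Mir7044 (-2.54) and Mir6953 (-1.72). Those with the largest ratios upward were Mir7059 (1.33), Mir7083 (1.17), Mir7004 (0.99), Mir6934 (0.86) and Mir6986 (0.63), on the scale of log2(CPM + 1). By the exact binomial test the adjusted p was 3.15e-33 for Mir6982, 1.17e-42 for Mir7044 and 3.27e-07 for Mir7059, and 0.0336 for Mir6986, which lost its call with TMM factors (adjusted p = 0.232).

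Across the 48 detected entries, log2(CPM + 1) in the 2 libraries had a Pearson correlation of 0.68 and a Spearman correlation of 0.60. Over the 385 other detected genes both were 0.91. The levels of the 48 span a narrower range, and the points of both correlations come from the same 2 libraries.

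**Figure D4:**
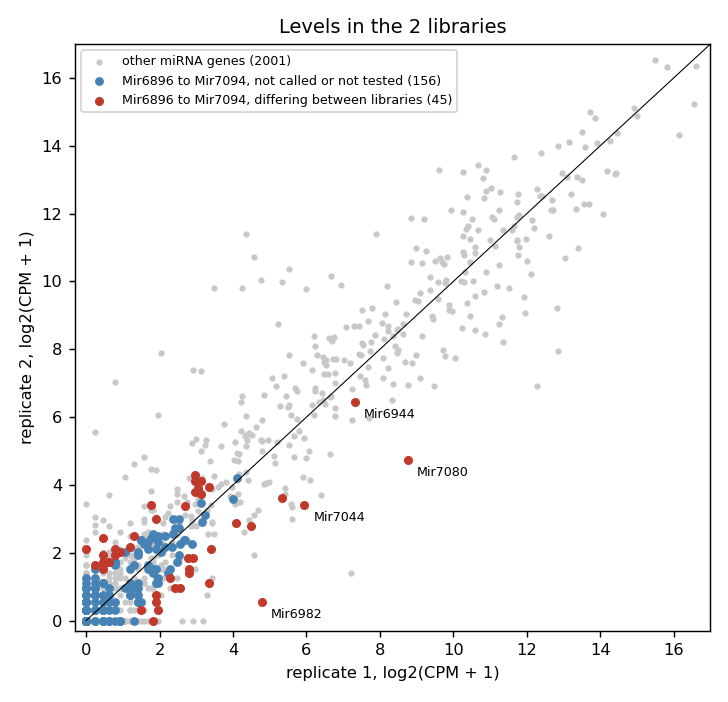
Level of all 2202 miRNA genes in replicate 1 (x axis) and replicate 2 (y axis), as log2(CPM + 1), with the line of equal levels. Grey points are the 2001 other genes, blue points entries of the range not called or not tested, and red points the 45 that differed. The entries lie at the low end of the scale, and Mir7080 and Mir6982 lie farthest below the line among those with a mean of at least 10 CPM.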

How the data were processed

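Each library has 1 deposited table of raw read counts for miRNA genes. Reads were placed by the authors on mm10 and counted over GENCODE M21, per the deposited text beside each table. The software for alignment, trimming and counting is not given in the sources used here. The columns are unnamed: that with the larger total of the 2 read as strand columns was used. The 4 rows that name no gene stayed out of library sizes: reads with several places (41.9% and 46.4% of reads), unmapped reads (17.1% and 17.2%), reads at no feature (5.56% and 5.17%) and ambiguous reads (0 and 0). Reads of the CAST/EiJ allele may be placed less often on mm10.

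CPM, shares, ratios and exact intervals (95%) were computed here with Python 3.11.15, scipy 1.17.1 and pandas 2.3.3. Hairpin ends were set against introns of all GENCODE M21 transcripts on the same strand. RNAfold 2.7.2 gave folding energies. edgeR 4.0.16 (TMM) and DESeq2 1.42.0 (size factors) gave only alternative scalings, because with 1 library on each side their tests have no residual degrees of freedom. The binomial script was checked on simulated data. P-values set the difference between these 2 libraries against counting error only and estimate no spread between libraries. Intervals and limits also cover counting error only.

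Genes are named by rule: the 30 detected entries with the highest mean CPM, for each direction the 5 called entries of at least 10 mean CPM whose log2 ratio was largest, the highest detected entry of each position class, and Mir877, Mir1224 and Mir702. The result of 1 entry that the rule names is not reported here. Entries named for a small class, a shared host or a shared seed were chosen after their values were seen. The members and lists were chosen with earlier results of these data known. Alternatives covered the CPM minimum, strand, scaling, low-count filter, pseudocount, splice-site tolerance, transcripts used and each library left out.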

Additional observations from a re-analysis of the deposited data

Results flagged for a closer look

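Reads on the strand opposite to the gene, a column the comparisons did not use, exceeded the limit that a count of 0 allows (3 counts) at Mir7071 in Heatr3. Mir7071 had 8 such counts in replicate 2 and 3 in replicate 1, beside 11 and 36 on its own strand. The gene Gm9988 overlaps it on the opposite strand. The source of these reads was not tested.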

How the results depend on the processing

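The number of detected entries followed the limit: it was 48 at a CPM of 2 in each library, 72 at 1, 19 at 5 and 130 with at least 1 count in each, since most levels lie near the limit. Leaving out replicate 1 or replicate 2 gave 68 to 70 detected, 61 to 63 of them with the 3′ end only, and a summed share of 0.0571% to 0.111%. Leaving out Mir7080, chosen after seeing the data, gave a mean share of 0.0613%. Requiring at least 10 bases of exon overlap reduced the entries over an exon boundary from 8 to 1 and raised those inside an intron from 2 to 9, by construction. The number differing between the libraries was 45, and 41 with TMM factors, 40 with DESeq2 size factors, 43 with no filter and 45 without strand. Intron-spanning entries numbered 14 to 18 over the tolerances of 0 to 10 bases. Of 31 named entries, 25 had the same outcome with TMM factors, counting those not called under either scaling. Mir7069, Mir6986, Mir7070 and Mir7063 lost their call (adjusted p of the exact binomial test 0.236, 0.232, 0.0535 and 0.239), and Mir6900 and Mir6959 gained one (0.0101 and 0.0257). Using CPM + 0.5 altered only the log2 ratios. The test takes raw counts, so this setting could not change a call. No paired analysis was possible because the 2 libraries form 1 group. Depth limits most of the range: 105 of 201 genes had the 10 counts in sum that the test required.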

Other observations

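GC content of the hairpin was higher among entries with higher counts. The hairpins of the 48 detected entries had a median GC content of 59.7%, those of the 116 with counts but not detected 57.4%, and those of the 37 with no count 53.2%. Across the 201 genes the Spearman correlation of GC content and mean CPM was 0.34, beside -0.07 for intron length, a description of these 2 libraries. The correlation for GC content was lower over the 48 detected entries (0.28) and over the 105 tested between the libraries (0.18). The minimum free energy of the RefSeq hairpin, a measure of how stably it folds, had a median of -26.6 kcal/mol for 41 detected entries, -26.75 for 106 with counts and -24.5 for 33 with none. Mir6944, the highest in replicate 2, had -55.8 kcal/mol over 96 bases, the lowest among the detected entries with a RefSeq hairpin, and Mir7080 had -32.2 over 67 bases.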
